A study of Mus musculus with 49 samples.

Results

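The genes described here are the protein-coding mouse genes with symbols from Zfp900 to Zfp999. They were taken from the gene rows of the count tables by their symbol and biotype in the GENCODE annotation of GRCm38, without use of any measured value. This gave 63 members among 54838 gene rows, and 302 further protein-coding genes carried a Zfp symbol with another number. The members lay on 12 chromosomes. Where the start of the next member lay within 1 Mb they were joined to a cluster, which placed 43 members in 5 clusters of 3 or more, on chromosomes 2, 4, 7, 8 and 17, and a further 2 as a pair, while 18 stood alone.

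Most of these genes encode KRAB zinc finger proteins. In such a protein a run of C2H2 zinc fingers binds DNA, and the KRAB domain recruits the co-repressor TRIM28 (also KAP1), which brings in the histone H3 lysine 9 methyltransferase SETDB1, so that the bound sequence is silenced. Many of their known targets are retrotransposons, and the genes multiply by local duplication, which leaves clusters of similar neighbours. Deletion of whole clusters in mouse embryonic stem cells, that on chromosome 4 among them, is known to derepress retrotransposons. The late 2-cell stage is that of major zygotic genome activation (ZGA), when retrotransposons are transcribed. TBP, one of the factors removed in this study, is the TATA-binding protein, a general factor that takes part in initiation at promoters of all nuclear RNA polymerases. FOXJ3, the other, is a forkhead transcription factor.

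Single late 2-cell embryos of F1 (C57BL/6JxCBA/H) zygotes were profiled with Smart-seq+5′, and only reads from transcript 5′ ends were counted. For loss of function (LOF) by Trim-Away, in which Trim21, a ubiquitin ligase, sends an antibody-bound protein to the proteasome, zygotes were injected with a mouse monoclonal antibody to TBP (3G3) or a rabbit polyclonal antibody to FOXJ3. CONTROL zygotes received normal mouse IgG in the TBP experiment and normal rabbit IgG in the FOXJ3 experiment. All 4 groups received mCherry-Trim21 mRNA 4 h later, and embryos were collected 48 h after hCG. By the labels, there were 9 LOF and 10 CONTROL embryos for TBP, and 17 LOF and 13 CONTROL embryos for FOXJ3. One TBP CONTROL embryo and 1 FOXJ3 LOF embryo had fewer than 500000 counted reads and were left out, so that 9, 9, 16 and 13 embryos entered the comparisons. The FOXJ3 embryos came in 2 library batches (9 LOF and 7 CONTROL embryos, then 7 and 6). By the paper, the embryos of both the TBP and the FOXJ3 experiment came from several independent collections. The labels do not say which embryo came from which. The p-values therefore measure the spread between embryos without a term for collection, and the FOXJ3 fit holds a term for library batch only. Because Trim-Away degrades protein, the mRNA of Tbp or Foxj3 does not check the labels.

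Counted reads per embryo lay between 1295251 and 4166903 upon TBP LOF (median 1706256) and between 1160150 and 5434808 in TBP CONTROL embryos (median 1551711). In the FOXJ3 experiment they lay between 1103569 and 3430110 upon LOF and between 1302207 and 3257323 in CONTROL embryos. The median share of ERCC spike-in reads was 4.38% upon TBP LOF and 2.82% in its CONTROL embryos. All 7 late 2-cell markers, Zscan4c and Zfp352 among them, had reads in each group. Of 8 markers of cumulus and granulosa cells, which surround the oocyte, 4 or 5 had a read in each group. Foxl2, Amhr2, Cyp19a1 and Star had reads in every group, while Fshr and Inhba were at 0 in all of them.

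Among the FOXJ3 CONTROL embryos, 2 of batch 1 (embryos 2 and 3) stood apart, as was seen after their values were known. Their normalised counts (reads divided by TMM size factors) were 4.01 and 6.82 for Zfp977, where the other 11 CONTROL embryos had 36.2 to 131, and 39.1 and 25 for Zfp936, where the others had 126 to 373. For Zfp957 they were 276 and 509 (others 48.4 to 207), and for Zfp982 282 and 427 (others 87.7 to 303). So Zfp977 and Zfp936 were below the other CONTROL embryos in both, and Zfp957 above them. The late 2-cell markers summed to 530 and 682 CPM in these embryos (others 107 to 351), the oocyte markers to 904 and 1436 CPM (others 322 to 1012), and the cumulus and granulosa list to 8.75 and 11.7 CPM (others 19 to 41.4). Upon FOXJ3 LOF these lists summed to 109 to 391, 252 to 946 and 7.44 to 41.3 CPM. Both embryos passed the quality criteria and were kept, and the counts of called members in the FOXJ3 experiment and in the difference between experiments are also given without them, a setting chosen after seeing the data. The part of the marker lists in their member levels was not tested.

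Members were read in every group, at low to moderate levels. In CPM (a gene's reads scaled to the counted reads of its embryo), the sum over the 63 members was 301 to 642 in TBP LOF embryos (median 462) and 537 to 979 in TBP CONTROL embryos (median 712). Upon FOXJ3 LOF it was 590 to 1297 (median 888), and 703 to 1120 in its CONTROL embryos (median 917). The ranges of the TBP groups overlapped only between 537 and 642, whereas those of the FOXJ3 groups covered each other for most of their length. A TBP LOF embryo had reads of 38 to 49 members (median 41), and a TBP CONTROL embryo of 39 to 50 (median 45). Across the 47 embryos, 22 members had a read in every embryo, 47 had at least 100 reads, and 3 near-identical genes of the chromosome 2 cluster, Zfp967, Zfp968 and Zfp969, had none. The first 300 transcript bases of these 3 genes consist wholly of 50-base words found in other genes too, so that 0 counted reads set no limit on their level.

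**Figure D1:**
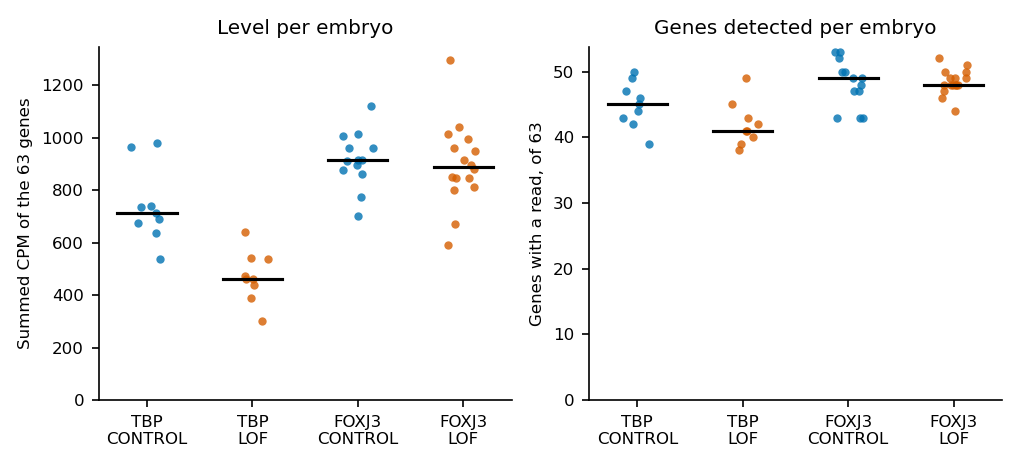
Summed CPM of the 63 members (first panel) and number of members with at least 1 read (second panel) in each embryo of the 4 groups, with the group median as a black line. TBP LOF embryos lie mostly below TBP CONTROL embryos (medians 462 and 712 CPM), and FOXJ3 LOF and CONTROL embryos lie over each other (888 and 917 CPM).

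Set against each other per kb of exonic length in TBP CONTROL embryos, Zfp982 had the highest median level with 34.5 CPM per kb, followed by Zfp977 with 30.8, Zfp978 with 21.0, Zfp981 with 20.4, Zfp936 with 17.2 and Zfp957 with 15. A read of a 5′ end is counted once per transcript whatever its length, so that division by length may not apply, and the order in CPM differed. There, Zfp981 led with a median of 64.5 CPM, before Zfp936 with 56.4, Zfp982 with 51.3, and Zfp961 and Zfp957 with 48.3 each. In FOXJ3 CONTROL embryos, Zfp936 came first with 92.2 CPM, then Zfp982 with 79.9 and Zfp957 with 69.9. The few members with many reads therefore included genes of the clusters on chromosomes 4 and 7 and lone genes on chromosomes 8 and 14.

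The promoters of 4 members are shown here because 2 of these genes, Zfp977 and Zfp936, had the smallest adjusted p-values upon TBP LOF, and the other two, Zfp982 and Zfp957, had the most CONTROL reads among members that did not pass the test. Each line gives the 150 bases before the RefSeq start on GRCm38.p6, 5′ to 3′ on the strand of the gene. Capitals were kept for the TATA box hexamer TATAAA on either strand, and none of the 4 holds it, so that all letters are in lower case.
Zfp977 (ENSMUSG00000092335.1), minus strand, chr7:42592546-42592695: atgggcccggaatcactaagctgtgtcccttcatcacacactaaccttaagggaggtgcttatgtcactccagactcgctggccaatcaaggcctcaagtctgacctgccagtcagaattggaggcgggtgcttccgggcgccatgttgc
Zfp936 (ENSMUSG00000064194.10), plus strand, chr7:43177440-43177589: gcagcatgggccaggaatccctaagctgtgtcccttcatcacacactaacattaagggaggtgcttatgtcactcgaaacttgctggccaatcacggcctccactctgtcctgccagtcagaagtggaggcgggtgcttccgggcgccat
Zfp982 (ENSMUSG00000078496.9), plus strand, chr4:147492267-147492416: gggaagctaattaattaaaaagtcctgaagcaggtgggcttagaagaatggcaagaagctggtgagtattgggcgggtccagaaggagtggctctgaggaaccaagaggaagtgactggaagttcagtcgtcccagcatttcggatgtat
Zfp957 (ENSMUSG00000071262.10), minus strand, chr14:79247368-79247517: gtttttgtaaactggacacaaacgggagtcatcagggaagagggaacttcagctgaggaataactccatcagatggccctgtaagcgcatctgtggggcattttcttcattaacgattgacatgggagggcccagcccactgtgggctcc
The RefSeq start of Zfp936 lies inside its GENCODE interval, downstream of the first annotated start. The GC content of these 150 bases was 56.0% for Zfp977, 56.7% for Zfp936, 48.7% for Zfp982 and 51.3% for Zfp957.

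Upon TBP LOF, 20 of the 51 members with enough reads to be tested had lower normalised counts and 0 had higher ones. Normalised counts are reads divided by a size factor from the ERCC spike-ins, so that a lower value stands for fewer transcripts per embryo relative to the added spike-in RNA. Fewer transcribing cells and less RNA per cell cannot be told apart in whole embryos. A member was called at an adjusted p under 0.05 in the quasi-likelihood test of edgeR, adjusted by the Benjamini-Hochberg method over all 19356 genes and TE families tested. The share of lower members was 39.2%, where 29.7% of all features tested were lower and 1.34% were higher. The members' median log2 fold change was −1.16, that of all features −0.72 and that of the 251 tested Zfp genes with other numbers −0.90, of which 77 were lower and 1 was higher. Among the 31 members that did not pass, the log2 fold change was negative for 21 and positive for 10. Over all features tested, called or not, it was negative for 14260 of 19356. The 12 untested members had a read in fewer than 25% of the embryos, and 8 of them belong to the chromosome 2 cluster.

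Whether a member could be called went with its reads. Of 43 members with 20 or more reads in TBP CONTROL embryos, 20 were lower (46.5%), beside 37.9% of all features with as many reads. None of the 8 tested members with fewer reads passed, and 5.06% of all features in that range were lower. In CPM, 17 members had a median of 10 or more in CONTROL embryos, and 14 of these were lower (82.4%), beside 57.9% of all features with such a median. In 17 of the 20 lower members all 9 LOF embryos lay below the CONTROL median, and in the other 3 members 8 of 9 did. These members were called lower from the same embryos, so that this was largely fixed by the choice. Groups without any overlap were seen for 4 members, Zfp977, Zfp936, Zfp989 and Zfp985, which is 7.84% of those tested, beside 6.96% of all genes tested.

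The spike-in normalised counts summed over the members were 303 to 1081 in LOF embryos (median 837) and 1198 to 2541 in CONTROL embryos (median 1598), and the groups did not overlap. This sum rests mainly on members with many reads, most of them already called lower, and is no separate result. The size of the difference between the groups depends on the spike-ins. The median of all features was −0.72 with spike-in scaling and 0.11 with TMM, edgeR's scaling on the genes and TE families themselves, a shift of 0.82. Under TMM the members' median was −0.38, and 11 members were lower and 3 were higher, beside 12.7% lower and 12.8% higher (25.5% in all) among all features. DESeq2's size factors gave the same counts, beside 12.6% lower and 13.4% higher (26.1% in all). With spike-in scaling, the test of DESeq2 called 22 members, all lower, beside 34.8% lower and 1.21% higher (36% in all) of 17104 features with an adjusted p. Relative to the median of all features, that of the members stood at −0.44 with spike-in scaling and at −0.49 under TMM. A change of scaling shifts all features by much the same amount, so that these are not 2 separate results. With spike-in scaling and edgeR's stricter filter on reads, filterByExpr, it stood at −0.26. Other lists were summed in CPM alone, which is a share of an embryo's counted reads and is not scaled by spike-ins. A list can rise in CPM without more transcripts per embryo, so these sums cannot be set against the spike-in normalised counts above. In CPM the members' median was 462 upon TBP LOF and 712 in CONTROL embryos. The late 2-cell and oocyte lists moved the other way. The paper, which scaled by spike-ins, reports known markers of ZGA, some of them listed here, as not affected. The 7 late 2-cell markers summed to 200 to 389 CPM upon TBP LOF (median 249) and 89.6 to 264 in CONTROL embryos (median 130), and the 5 oocyte markers to 502 to 970 (median 663) and 297 to 490 (median 379). The cumulus and granulosa list summed to 11.9 to 34.6 CPM upon LOF (median 16) and 17.0 to 48.3 in CONTROL embryos (median 21.4). The part of these differences and of the spike-in share in the members' levels was not tested.

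The smallest adjusted p-value belonged to Zfp977 (chr7:42579783-42592547, minus strand). Its normalised count was 0 to 18.4 in the LOF embryos (median 2.45) and 33.2 to 133 in the CONTROL embryos (median 101). Every LOF embryo lay below every CONTROL embryo, with a log2 fold change of −3.93 ± 0.48 (SE) and an adjusted p of 6.43e-09 in edgeR's test, a 15.3-fold lower level. Zfp936, of the same cluster (chr7:43114229-43192109, plus strand) had 7.94 to 56.7 normalised counts upon LOF (median 17.2) and 107 to 177 in CONTROL embryos (median 121). The groups were again apart, and the level was 6.52-fold lower (log2 fold change −2.70 ± 0.35, edgeR adjusted p = 2.26e-08). Of the first 300 bases of its transcripts, 60.05% of the 50-base words also occurred in transcripts of another gene, and 21.9% for Zfp977, so that part of their reads could be divided between copies.

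In the chromosome 4 cluster, 4 lower genes were among the named ones. Zfp989 (chr4:146971976-146990755, plus strand) had 0 to 12.3 normalised counts upon LOF (median 3.45) and 27.1 to 46.7 in CONTROL embryos (median 33.7), without overlap (log2 fold change −3.01 ± 0.47, edgeR adjusted p = 1.10e-06). Zfp985 (chr4:147553277-147585198, plus strand) had 5.55 to 20.6 (median 12.3) and 38.0 to 79.8 (median 52.4), also without overlap (−2.06 ± 0.36, edgeR adjusted p = 7.34e-06). Both had their CONTROL embryos within a narrow range. Zfp981 (chr4:146502027-146539395, plus strand), the first in CPM among CONTROL embryos, had 5.07 to 68.8 upon LOF (median 27.6) and 48.8 to 280 in CONTROL embryos (median 165; −2.2 ± 0.38, edgeR adjusted p = 5.67e-06). Here 3 LOF embryos lay above the lowest CONTROL embryo. Zfp978 (chr4:147361303-147391004, plus strand) had 3.45 to 76.2 upon LOF (median 18.3) and 28.4 to 536 in CONTROL embryos (median 65.6). The CONTROL median was above 8 of 9 LOF embryos. Its log2 fold change was −2.40 ± 0.44 (edgeR adjusted p = 1.69e-05), and −1.77 (adjusted p = 0.000578) without CONTROL embryo 8, which held the value of 536. In the first 300 transcript bases, all 50-base words of Zfp978 also occurred in other genes, as did 59.9% for Zfp989, 24.1% for Zfp981 and 9.45% for Zfp985. Zfp989 and Zfp981 overlap the gene Gm26573 on the other strand, and Zfp978 overlaps Gm26624 on its own strand. Whether counting used strand is not stated in the labels or methods, so that reads of such partners cannot be told apart.

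The other named lower members lie on chromosomes 7, 8, 17 and 19. Zfp948 (chr17:21567008-21588699, plus strand) had 1.45 to 33.6 normalised counts upon LOF (median 11) and 20.2 to 99.4 in CONTROL embryos (median 45.1; −2.02 ± 0.40, edgeR adjusted p = 5.08e-05). Zfp930 (chr8:69209038-69230536, plus strand) had 1.23 to 32.6 (median 13.1) and 22.8 to 65.6 (median 40.1; −1.82 ± 0.42, edgeR adjusted p = 0.000505). For Zfp948 3 LOF embryos lay within the CONTROL range, and for Zfp930 1 did. Zfp950 (chr19:61053840-61140840, minus strand), which overlaps the kinase gene Grk5 on the other strand, had 0 to 13.3 upon LOF (median 7.35) and 7.22 to 54.6 in CONTROL embryos (median 20.8; −2.22 ± 0.54, edgeR adjusted p = 0.000928). Zfp960 (chr17:17064113-17089628, plus strand) had 0 to 5.74 (median 1.45) and 2.71 to 43.4 (median 8.31; −2.84 ± 0.69, edgeR adjusted p = 0.000871), and 96.8% of the 50-base words in its first 300 bases were shared with other genes. Zfp954 (chr7:7114690-7121488, minus strand) had 0.724 to 19.3 (median 10.2) and 13.5 to 68.3 (median 26.8; −1.70 ± 0.45, edgeR adjusted p = 0.00252). For Zfp954 the call ended under TMM, with −0.92 and an adjusted p of 0.0748.

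Zfp974 (chr7:27907392-27929460, minus strand) was at 0 reads in all 9 LOF embryos, while the CONTROL embryos held 29 reads and 0 to 13.5 normalised counts (median 3.33). Set against a floor of 3 counts over the LOF group, its level was at least 14.3-fold lower, and edgeR's adjusted p was 0.000181. It passed the filter for testing through CONTROL embryos alone, 6 of which had a read, so that this p-value is weak support. With filterByExpr it was not among the called members. Other genes shared 72.7% of the 50-base words in its first 300 bases. Floors of this kind cover counting error only, since PCR copies of 1 molecule cannot be told from separate ones without molecular identifiers. The remaining 8 lower members had log2 fold changes between −2.53 (Zfp987) and −0.88 (Zfp949), with Zfp935 at −2.21, Zfp986 at −2.01, Zfp958 at −1.36, Zfp979 and Zfp951 at −1.16 each, and Zfp961 at −1.08. Other genes shared 100% of the 50-base words in the first 300 bases of Zfp979, 71.8% for Zfp987 and 52.8% for Zfp986. For Zfp949, Zfp951, Zfp958 and Zfp961 it was 0% to 5.42%, and Zfp935 is described below. Zfp987 was lost without CONTROL embryo 8, which held 27.5 normalised counts (−1.75, edgeR adjusted p = 0.143). Zfp949 was lost without any 1 of LOF embryos 1, 2, 7, 9 and 11 and CONTROL embryos 3, 4 and 10 (−0.77 to −0.85, edgeR adjusted p of 0.0513 to 0.0758). The calls of the other lower members held without each embryo. All 8 and Zfp954 were not called under TMM.

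**Figure D2:**
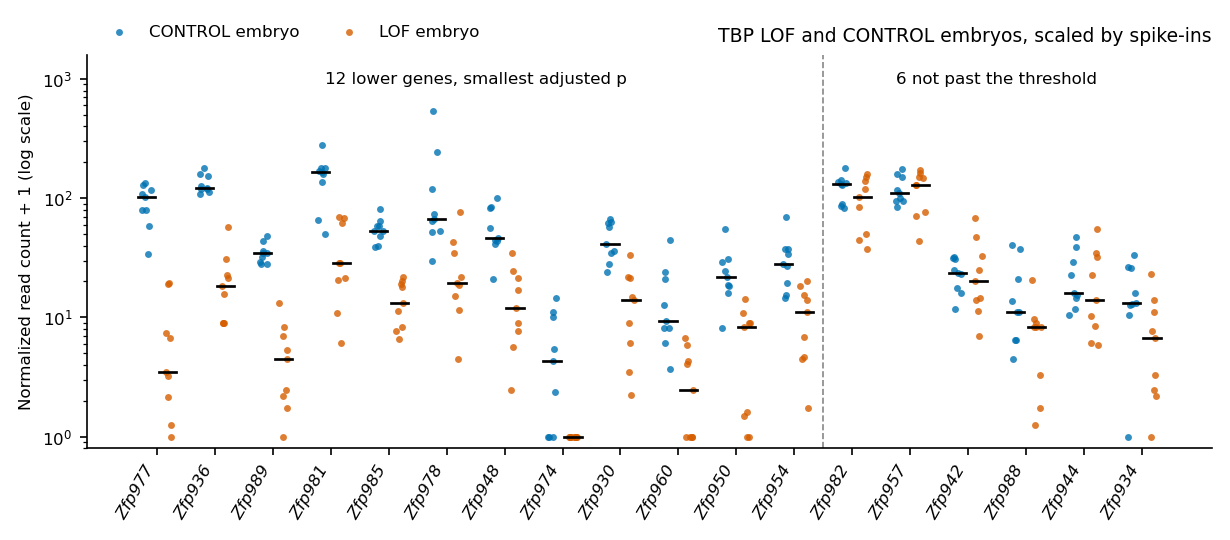
Spike-in normalised counts plus 1 on a log axis for the 12 named lower members and the 6 most-read members that did not pass the test, one point per embryo, in 9 TBP LOF and 9 TBP CONTROL embryos, with the group median as a black line. Zfp977, Zfp936, Zfp989 and Zfp985 show no overlap between groups, and the points of Zfp982 and Zfp957 lie over each other.

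Among members with many reads, several did not pass. Zfp982 (chr4:147492417-147513486, plus strand), the highest per kb, had 36.2 to 158 normalised counts upon LOF (median 102) and 81.5 to 179 in CONTROL embryos (median 131; −0.34 ± 0.31, edgeR adjusted p = 0.458). Zfp957 (chr14:79212355-79247369, minus strand) had 43.0 to 171 (median 129) and 84.1 to 176 (median 110; −0.01 ± 0.30, edgeR adjusted p = 0.985). In both, 6 of 9 LOF embryos lay within the CONTROL range. Zfp942 (chr17:21926960-21962464, minus strand) had 6.04 to 66.6 (median 19.3) and 10.8 to 31.2 (median 22.4; 0.15 ± 0.40, edgeR adjusted p = 0.832), and Zfp944 (chr17:22337989-22361400, minus strand) had 4.92 to 54.0 (median 12.9) and 9.48 to 46.0 (median 15.2; −0.19 ± 0.44, edgeR adjusted p = 0.801). These genes share a cluster, and their groups overlapped fully or nearly so. Under TMM, the log2 fold change was 0.93 for Zfp942 (adjusted p = 0.0349), 0.87 for Zfp957 and 0.48 for Zfp982. Zfp942, Zfp957 and Zfp932, which with a paralog represses endogenous retroviruses of the ERVK class, were the 3 members higher under TMM.

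The last named members without a call lay nearer the threshold. Zfp988 (chr4:147305674-147333734, plus strand) had 0.241 to 19.7 normalised counts upon LOF (median 7.35) and 3.47 to 39.4 in CONTROL embryos (median 10.1; −1.27 ± 0.55, edgeR adjusted p = 0.0734), and passed without LOF embryo 10 (−1.70, adjusted p = 0.0197). Zfp934 (chr13:62479827-62571199) had 0 to 22.2 (median 5.74) and 0 to 32.2 (median 12.1; −1.28 ± 0.58, edgeR adjusted p = 0.0897), and passed without LOF embryo 8 (−1.67, adjusted p = 0.0259). In each of the pair a single LOF embryo decided the call. Zfp934 overlaps its neighbour Zfp935 (chr13:62453715-62558511), which was lower, so that their reads may be divided between them. Of the 50-base words of Zfp935, 100% also occurred in other genes, and 99.2% in Gm49359, which overlaps it on the same strand. Reads of Zfp935 and Gm49359 can therefore hardly be told apart.

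**Figure D3:**
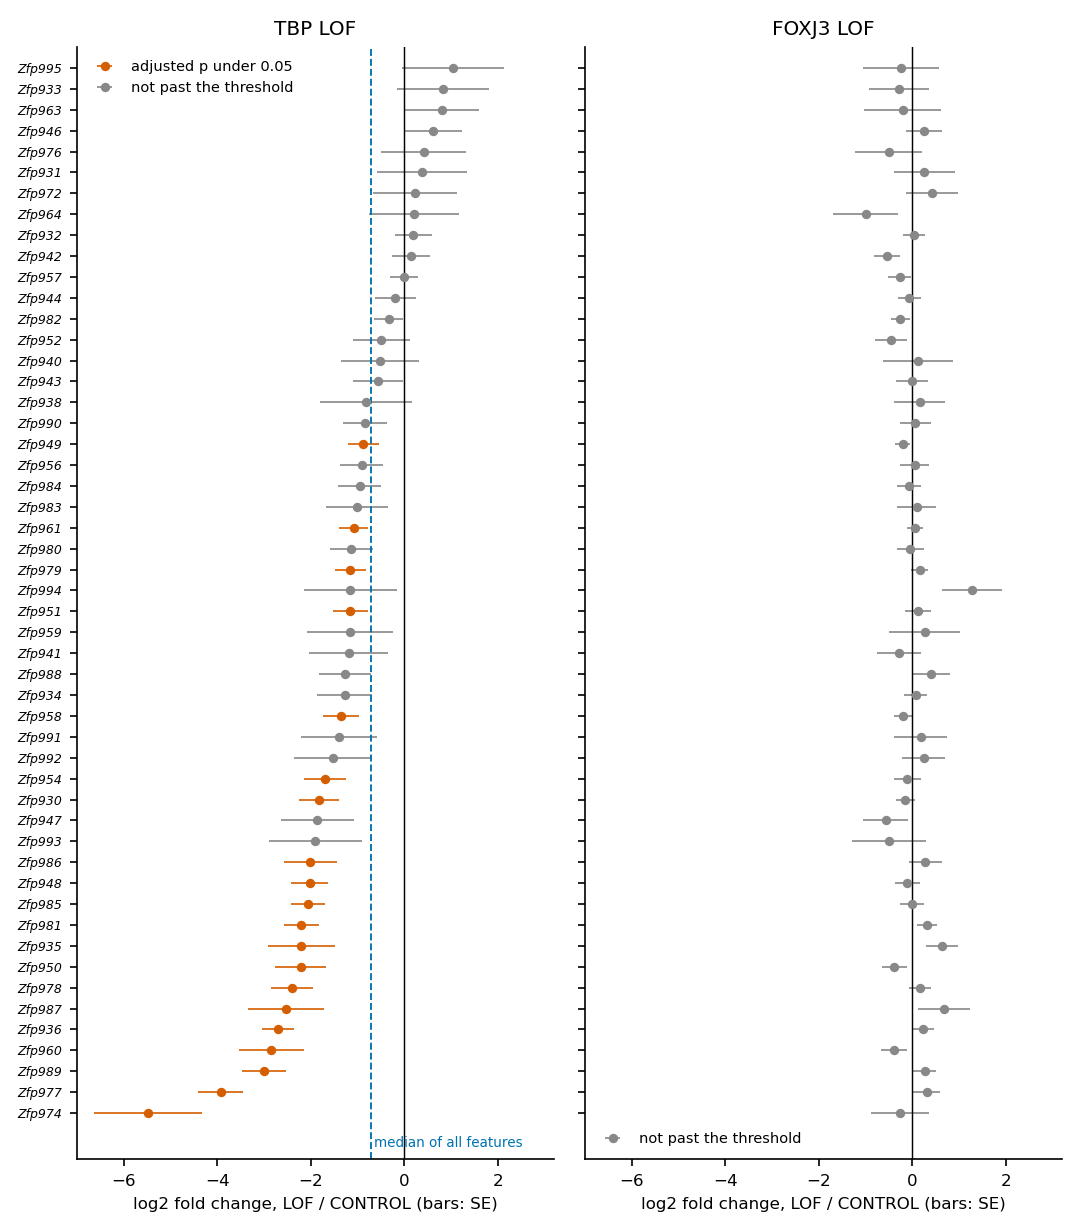
Log2 fold change of LOF over CONTROL with its SE for the 51 members tested upon TBP LOF, in the TBP and FOXJ3 experiments, with called members in orange, the others in grey and the median of all features as a dashed line in the TBP panel. Upon TBP LOF 20 members are lower and 0 are higher, and upon FOXJ3 LOF 0 are called.

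**Figure D4:**
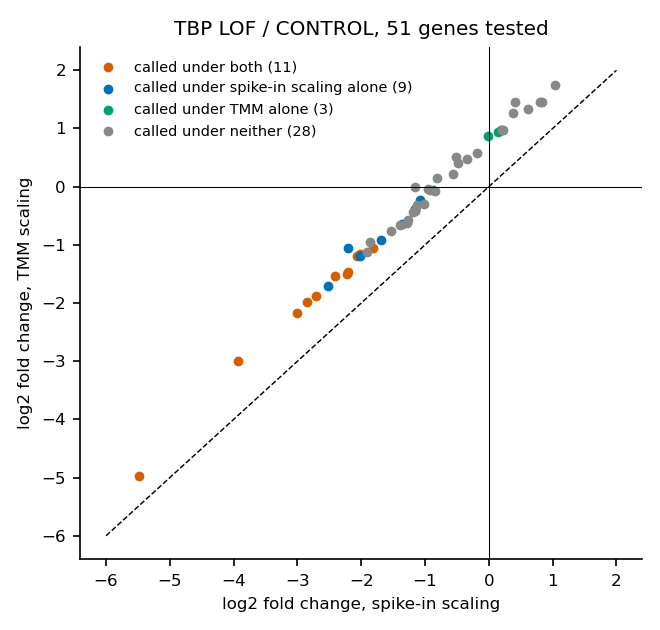
Log2 fold change upon TBP LOF of each tested member with spike-in scaling (x axis) and with TMM (y axis). Of 51 members, 11 are called under both scalings, 9 under spike-in scaling alone, 3 under TMM alone and 28 under neither.

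Counts of lower members upon TBP LOF are given next for each cluster, and differences between clusters were not tested. Over all features tested, 29.7% were lower, and 14260 of 19356 had a negative log2 fold change. The chromosome 4 cluster (145510759 to 147848366) held 16 members, all tested, of which 7 were lower and 15 had a negative log2 fold change (median −1.46). Their summed normalised count was 80.9 to 379 upon LOF (median 315) and 440 to 1360 in CONTROL embryos (median 644), without overlap. Most reads in CONTROL embryos were of Zfp978 (1738), Zfp981 (1496) and Zfp979 (1050), which were lower, and of Zfp982 (1000), which did not pass. The sum thus rests mainly on members already called and is no separate result for the cluster. Zfp982, which did not pass, lies between Zfp978 and Zfp985, which were both lower. The other protein-coding genes between the first and the last member behaved as follows: 6 were tested and 4 were lower, Gm21411 (−2.65), Rex2 (−2.13), Zfp600 (−1.88) and Gm13212 (−1.63). Zfp978 and Zfp979 shared more of their 50-base words with Zfp600 than with any other gene, so that reads may be divided between these genes. Under TMM, 4 of the 16 members were lower, beside 12.7% of all features.

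On chromosome 7 (42579783 to 43192109), 3 of 4 members were tested, and Zfp977 and Zfp936 were lower. Zfp976 had at most 1.69 normalised counts in any TBP embryo and did not pass (0.41 ± 0.91), and Zfp975 was not tested. The sum over the cluster was 9.66 to 74.8 normalised counts upon LOF (median 23.0) and 168 to 293 in CONTROL embryos (median 229), without overlap. Zfp975 and Zfp976 had 5 and 3 reads in CONTROL embryos, beside 683 for Zfp977 and 1243 for Zfp936. The sum thus repeats Zfp977 and Zfp936, whose groups were already apart, and is no separate result. Both calls held under TMM. Among its 2 tested neighbours, Gm9268 was lower (−4.33).

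The chromosome 17 cluster (21567008 to 22867134) held 10 members, of which 9 were tested and 1, Zfp948, was lower, with a median of −0.56. Its other tested members lay between −1.87 (Zfp947) and 1.04 (Zfp995), and Zfp947 had an edgeR adjusted p of 0.0620, and passed without LOF embryo 9 (−2.34, edgeR adjusted p = 0.0290) or LOF embryo 10 (−2.12, edgeR adjusted p = 0.0430). Of 6 tested neighbours, Zfp758 (−1.56), Zfp820 (−1.39) and Zfp229 (−1.31) were lower. Under TMM, 1 of the 9 tested members was lower and 1 was higher, beside 12.7% and 12.8% of all features. Their median was then 0.22, and that of all features 0.11. On chromosome 8 (69209038 to 69749970), 1 of 3 members was lower, Zfp930, while Zfp964 (0.20) and Zfp963 (0.80) had medians of 1.23 and 2.41 normalised counts upon LOF and did not pass. Of its 3 tested neighbours 2 were lower. The chromosome 2 cluster (175372436 to 178078476) was hardly read. Of its 10 members only Zfp972 and Zfp931 were tested, neither passed, and 0 of its 12 tested neighbours were lower. Inside these clusters 11 of 33 tested members were lower and outside them 9 of 18, with medians of −1.16 in both. Under TMM it was 8 of 33 inside (24.2%) and 3 of 18 outside (16.7%), beside 12.7% of all features, so that the order of the shares turned.

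**Figure D5:**
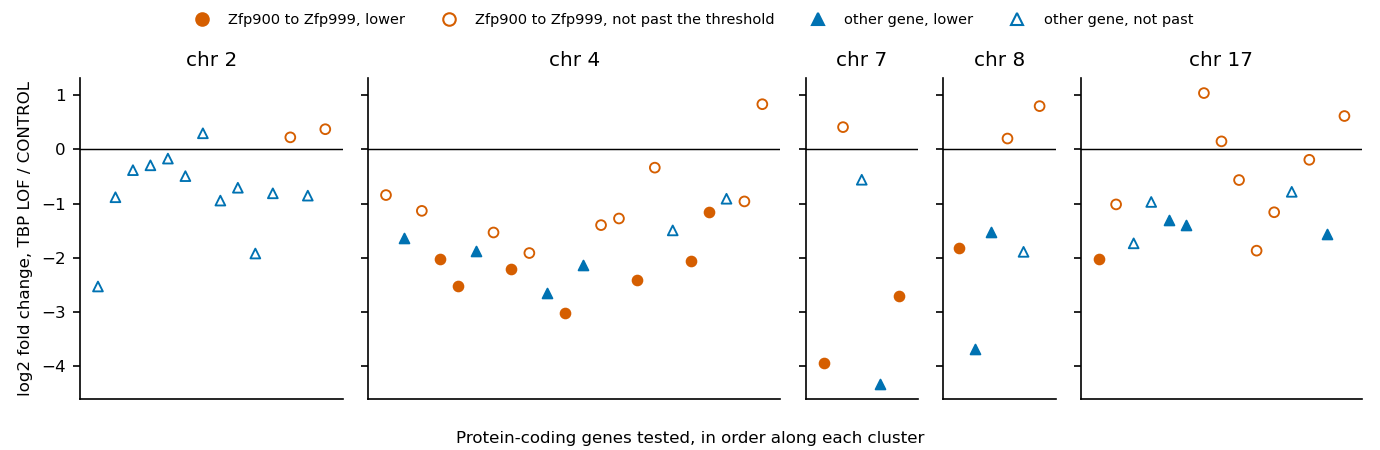
Log2 fold change upon TBP LOF of protein-coding genes tested in the 5 clusters, in their order along each, with members as circles, other protein-coding genes as triangles and lower genes filled. The chromosome 4 cluster has 7 of 16 members lower and the chromosome 17 cluster 1 of 9 tested.

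A zinc finger is implied by the symbol through which the members were chosen, and the number of fingers and the KRAB domain were counted. In the proteins translated from their longest GENCODE coding sequence, the KRAB A box core (E-W, then L, Q and L at fixed spacing) was found in 59 of 63, and the number of C2H2 fingers was 0 to 21 (median 11). Of the 20 lower members 19 had the KRAB core, with a median of 11 fingers, and of the 31 that did not pass 28 had it, with a median of 10. The proteins without the core were those of Zfp956, Zfp957, Zfp972 and Zfp974, and no finger of this pattern was found in those of Zfp935, Zfp957 and Zfp972. Zfp957, whose level did not pass, and Zfp974, which was at 0 upon LOF, were thus unlike most other members in their protein. Within clusters, the median identity between 2 proteins, as a share of the longer one, was 63.7% on chromosome 2, 52.9% on chromosome 4, 67.3% on chromosome 7, 44.9% on chromosome 8 and 47.5% on chromosome 17. Of the first 300 transcript bases, a median of 38.6% of 50-base words per member also occurred in another gene, with 23.0% for lower members, 27.4% for those that did not pass and 86.0% for those not tested.

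RefSeq promoter windows, from 250 bases before to 50 after the start, were matched for 53 members. For 48 of them the RefSeq start lay within 100 bases of the GENCODE start. It lay 213 bases away for Zfp947, 12893 for Zfp981, 63361 for Zfp936, 91699 for Zfp935 and 98112 for Zfp993, whose window lies outside its GENCODE interval and within that of Zfp981. The hexamer TATAAA occurred on either strand in 0 of these 53 windows. It occurred in 13.6% of all 32851 windows of the same length and in 12.1% of the 20150 windows of protein-coding genes. Between 40 and 20 bases before the start, on the strand of the gene, it occurred in 0 of the 53. The share there was 1.91% of all windows and 2.42% of those of protein-coding genes. Windows were matched for 15 of the 20 lower members and not for Zfp978, Zfp986, Zfp989, Zfp930 and Zfp960. The median GC content was 49.3% over these 15 windows, 49% over the 53, 52.7% over all windows and 57% over those of protein-coding genes.

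Within clusters, the 250 bases before the start could be aligned over 100 bases or more for 36 of 36 pairs on chromosome 2, 28 of 45 on chromosome 4, 6 of 6 on chromosome 7, 1 of 1 on chromosome 8 and 12 of 45 on chromosome 17. Of these 83 pairs 47 were at least 90% identical, 28 of them on chromosome 2 and 1 on chromosome 17. The pairs named next were chosen after their values were seen. Those of Zfp977 and Zfp936, printed above, matched in 225 of 245 aligned bases (91.8%), and both genes were lower. Zfp942 and Zfp944 matched in 224 of 225 (99.6%), and neither passed. On chromosome 4, Zfp985 matched Zfp988 in 205 of 215 bases (95.3%) and Zfp982 in 210 of 230 (91.3%), and of these 3 genes only Zfp985 was lower. Zfp977 matched Zfp976, which had a few reads at most, in 218 of 233 (93.6%). Members with promoters alike were therefore found on the same and on different sides of the threshold.

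Upon FOXJ3 LOF, 0 of 57 tested members passed the threshold in edgeR's test, beside 0.0102% of all features tested (2 of 19517). No member had an unadjusted p under 0.05 in edgeR, beside 1134 of all 19517 features. By DESeq2 0 members were called, and 1 member had an unadjusted p under 0.05, beside 1159 features in all. The members' median log2 fold change was −0.02, and that of all features −0.04, with 30 members negative and 27 positive. Without CONTROL embryos 2 and 3 of batch 1, edgeR called 0 of 56 members. Among these 3 had an unadjusted p under 0.05, beside 1228 of all 19666 features. The median was then 0.099 for the members and 0.0054 for all features. Summed normalised counts (TMM) were 1386 to 2286 upon LOF (median 1972) and 1374 to 2424 in CONTROL embryos (median 1880). The groups covered nearly the same range.

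The 4 members with the smallest unadjusted p had adjusted p-values of 0.86 to 0.90 in edgeR's test. Zfp994 (chr17:22197265-22225616) had 0 to 6.85 normalised counts upon FOXJ3 LOF (median 1.95) and 0 to 3.94 in CONTROL embryos (median 0.835), with a log2 fold change of 1.28 ± 0.65, 0.56 in batch 1 and 2.57 in batch 2. Zfp942 had 4.23 to 49.9 (median 24.3) and 17.7 to 76.1 (median 32.7), with −0.55 ± 0.28. In batch 1 it was −0.97 ± 0.41, and in batch 2 0.016 ± 0.31. CONTROL embryos 2 and 3 of batch 1 held its highest CONTROL values, 59.2 and 76.1, and without them it was −0.26 ± 0.26, and −0.54 ± 0.42 in batch 1. Zfp935 had 1.71 to 20.6 (median 9.06) and 1.97 to 9.18 (median 5.05), with 0.63 ± 0.34, 0.58 in batch 1 and 0.71 in batch 2. Zfp971 (chr2:178023284-178034022) had a median of 0 in both groups and at most 5.79, with −1.31 ± 0.79, −0.71 without CONTROL embryo 1 of batch 2, and −0.68 without CONTROL embryos 2 and 3 of batch 1. The ranges of all 4 overlapped.

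The 20 members lower upon TBP LOF had log2 fold changes of −0.39 to 0.68 upon FOXJ3 LOF (median 0.09), 11 above 0 and 9 below. Zfp977 had 48.3 to 129 normalised counts upon FOXJ3 LOF (median 94.4) and 4.01 to 131 in CONTROL embryos (median 84.5), or 36.2 to 131 (median 90) without the embryos 2 and 3 of batch 1. Zfp936 had 104 to 358 (median 205) and 25 to 373 (median 192), or 126 to 373 (median 210) without them. For the 12 named lower members the SE of the FOXJ3 log2 fold change was 0.20 to 0.62, which bounds the size of a change that these embryos could show.

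Whether the effects of the 2 experiments differed was tested in a fit of all 47 embryos, scaled by spike-ins. The median share of spike-in reads was 2.78% upon FOXJ3 LOF and 3.75% in its CONTROL embryos. With spike-in scaling the FOXJ3 median was 0.14 for all features and 0.18 for the members, beside −0.04 and −0.02 with TMM. The median difference over all features was −0.91. The part of this shift in each difference was not tested. Of 56 members tested, the TBP LOF effect was lower than the FOXJ3 LOF effect for 21 and higher for 0, beside 27.8% and 0.931% of all features. The difference was −4.37 ± 0.63 for Zfp977 (edgeR adjusted p = 2.68e-07), −3.19 ± 0.46 for Zfp936 (edgeR adjusted p = 2.96e-07) and −3.47 ± 0.57 for Zfp989 (edgeR adjusted p = 2.76e-06). The TBP LOF effect is a term of this difference, so that members chosen by it tend to differ. Of the 20 members lower upon TBP LOF 19 did (95%), beside 85.7% of all features lower upon TBP LOF, and Zfp949 did not pass (−0.84, edgeR adjusted p = 0.120). The remaining members were Zfp988 (−1.92 ± 0.74, edgeR adjusted p = 0.0412) and Zfp945, which had too few reads for the TBP comparison. Zfp945 had 0 reads upon TBP LOF and 9 reads in 3 TBP CONTROL embryos. It entered the fit of all embryos mainly through reads of the FOXJ3 embryos, so that its call is weak support. Without FOXJ3 CONTROL embryos 2 and 3 of batch 1, 21 of 53 members were lower, with Zfp992 gained (−2.46, edgeR adjusted p = 0.0388) and Zfp951 lost (−1.38, edgeR adjusted p = 0.0519), beside 27.6% of all features. The difference was then −4.15 ± 0.56 for Zfp977 and −3.00 ± 0.42 for Zfp936. Under TMM, 12 members were lower and 2 were higher, beside 13% and 7.9% of all features (20.9% in all). The experiments differed also in antibody, IgG and library preparation, and the contrast sets LOF against CONTROL within each.

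Of 23 genes of the co-repressor machinery through which KRAB proteins act, 9 were lower and 0 were higher upon TBP LOF in edgeR's test, with a median log2 fold change of −0.67. This is a share of 39.1%, beside 29.7% lower and a median of −0.72 for all features. Of the 23 genes 21 passed edgeR's stricter filter on reads, filterByExpr, and 9 of these were lower (42.9%), beside 52.5% of all features that passed it. Under TMM, 3 of these genes were lower and 4 were higher. Trim28 had −1.29 ± 0.32 (adjusted p = 0.00107) and Setdb1 −1.16 ± 0.37 (adjusted p = 0.0124). Under TMM neither was called, with −0.46 (adjusted p = 0.160) and −0.33 (adjusted p = 0.435). Smarcad1, a chromatin remodeller that works with TRIM28, had −2.10 ± 0.35 (edgeR adjusted p = 3.73e-06) and was lower under TMM too (−1.18, adjusted p = 0.00253). Cbx1, which encodes HP1 beta, had 0.62 ± 0.34 (edgeR adjusted p = 0.171) and was higher under TMM (1.46, adjusted p = 8.35e-05). Tbp mRNA was lower upon TBP LOF, with 6.59 to 151 normalised counts (median 83.3) and 195 to 672 in CONTROL embryos (median 280; −2.14 ± 0.37, edgeR adjusted p = 5.26e-06). Foxj3 mRNA did not pass upon FOXJ3 LOF (0.26 ± 0.13, edgeR adjusted p = 0.854).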

How the data were processed

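Expression was measured in single late 2-cell embryos. The authors trimmed reads with Trimmomatic, sorted those of transcript 5′ ends, mapped them with STAR 2.7.11a to GRCm38 with the mCherry-Trim21 construct added and endogenous Trim21 masked, kept the second read, and counted with TEcount on gencode M20. The deposited values are estimated counts (expected counts) per gene, ERCC transcript and TE family without normalization. All were whole numbers, so rounding changed nothing. The strand setting and multi-read mode: not given in the sources used here.

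The members, lists and tests were chosen with earlier results of these data known. Embryos were kept with at least 500000 reads, 1000 genes, at most 10% mitochondrial and 15% ERCC reads (47 of 49). No 2 embryos had identical counts. Features with a read in at least 25% of the embryos were tested with the quasi-likelihood test of edgeR 4.0.16 (two-sided, Benjamini-Hochberg, threshold 0.05), with TE subfamilies added to their families. TBP embryos were scaled by the median of ratios over 42 ERCC transcripts, FOXJ3 embryos by TMM, with a term for library batch, and the difference by 41 ERCC transcripts over all embryos. The authors used DESeq2, here an alternative (1.42.0). SE values were derived from the F statistic. The test was also run on simulated counts, and the outcome is not given here. Named members are the 12 lower with the smallest adjusted p upon TBP LOF, the 6 most read in CONTROL embryos without a call, and the 4 with the smallest p upon FOXJ3 LOF, beside the members of clusters. Genes named outside these rules were chosen after their values were seen. RefSeq proteins were not used here, and coding sequences of GENCODE were translated in their place with Biopython 1.88. The tables of single TE insertions were not used. Alternatives were other scalings, DESeq2, other filters, all embryos, single batches, an embryo-number block leaving out each embryo and, chosen after seeing the data, leaving out 2 FOXJ3 CONTROL embryos together.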

Additional observations from a re-analysis of the deposited data

Results flagged for a closer look

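In 36 groups of 9 embryos, 6 values of named members stood far from the other embryos of their group in the TBP experiment, by the gap to the nearest embryo over the range of the group. The cut-off gives about 1 in 20 such groups where values are normally distributed. The counts were not log-transformed and their distribution was not tested, so that 6 of 36 cannot be set against that rate. All 6 were the highest values of their group. Zfp936 had 56.7 normalised counts in LOF embryo 6, above all other LOF embryos. Zfp978 had 536 in CONTROL embryo 8 (next 245), Zfp960 had 43.4 in CONTROL embryo 6 (next 22.8), Zfp950 had 54.6 in CONTROL embryo 9 (next 29.97), Zfp954 had 68.3 in CONTROL embryo 8 (next 36.6), and Zfp988 had 19.7 in LOF embryo 10 (next 8.71). CONTROL embryo 8 thus held 2 of the 6 values. Without the embryo that stood apart, the call changed for Zfp988 alone among these 6 genes, as given with its values in the report.

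The FOXJ3 groups hold over 10 embryos and were not examined in this way. CONTROL embryos 2 and 3 of their batch 1, which stood apart, are given in the report.

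For 14 of 21 named members the TBP LOF effect differed from the FOXJ3 LOF effect in edgeR's test of the difference, and each was lower, beside 27.8% of all features. Of the 21, 12 had been named for their lower level upon TBP LOF, a term of the difference, so that this direction was largely fixed by the choice. The difference in log2 fold change was −5.32 for Zfp974, −4.37 for Zfp977, −3.47 for Zfp989, −3.19 for Zfp936, −3.13 for Zfp935, −2.81 for Zfp978, −2.79 for Zfp981, −2.76 for Zfp960, −2.23 for Zfp985, −2.05 for Zfp948, −2.04 for Zfp950, −1.92 for Zfp988, −1.81 for Zfp930 and −1.79 for Zfp954. As Zfp974 had no read upon TBP LOF, its fitted value depends on the prior count and is no bound.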

How the results depend on the processing

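The number of members past the threshold upon TBP LOF was 20, and 14 to 22 under 8 other settings. It was 14 under TMM and under DESeq2's size factors, 11 lower and 3 higher in each, beside 25.5% and 26.1% of all features called. It was 16 with filterByExpr (24 members tested, 52.5% of all features lower) and 18 with the replicate block (23.6%). It was 20 with total ERCC reads (28.8%), 21 without a filter (21.8%), and 22 with DESeq2's test (34.8%) or all embryos (29.9%). With each embryo left out it was 19 to 23. Upon FOXJ3 LOF it was 0 under each of 12 settings and without each embryo. The difference gave 21, and 14 under TMM, 12 lower and 2 higher, beside 13% and 7.9% of all features (20.9% in all). It gave 23 with all embryos (28.3% of all features lower) and 21 without a filter (15.9%). Without FOXJ3 CONTROL embryos 2 and 3 of batch 1, a setting chosen after seeing the data, it gave 21 (27.6%). No total moved by over 1.5 times, but the lower members alone went from 20 to 11 upon TBP LOF under TMM and DESeq2's size factors, and from 21 to 12 in the difference under TMM. Of the named members, Zfp954 (−0.92 and −0.90) and Zfp935 (−1.05 and −1.03) lost their call under TMM and DESeq2's size factors, and Zfp942 (0.93 and 0.98) and Zfp957 (0.87 and 0.91) gained one as higher. With 1 embryo left out, Zfp987 and Zfp949 lost their call and Zfp934, Zfp947, Zfp980 and Zfp988 gained one, as lower.

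Under TMM and DESeq2's size factors the direction turned for some of the members named for TBP LOF. These were Zfp982 (0.48 and 0.50), Zfp957 (0.87 and 0.91) and Zfp944 (0.57 and 0.60), where all features shifted by 0.82 and 0.85. Of the 51 tested members 41 had a negative log2 fold change with spike-in scaling, 34 under TMM and 33 with DESeq2's size factors. Of all 19356 features tested, 14260, 8978 and 8819 did. Zfp957, near 0, also turned with total ERCC reads (0.018), all embryos (0.053) and the replicate block (0.15), and lay between −0.090 and 0.10 with 1 embryo left out. The range was −0.18 to 0.29 for Zfp942 and −0.52 to 0.035 for Zfp944. Upon FOXJ3 LOF, Zfp942 was near 0 in batch 2 alone (0.016). The cause of these turns was not tested.

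Embryo numbers did not pair the samples: deviations of same-numbered embryos correlated by −0.054 to 0.133 over 7 TBP pairs, 1 of them over 0.1, and by −0.205 to 0.273 over 12 FOXJ3 pairs, 3 over 0.1. The block, given above, had 14 embryos of the TBP experiment, LOF and CONTROL together. It left 18 members upon TBP LOF, without Zfp951 and Zfp987, and 0 upon FOXJ3 LOF. Depth limits members with few reads, and shared sequence the division of reads between copies.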
